A study of Sus scrofa with 35 samples.

Results

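Genes of glycolysis, of the handling of pyruvate and of the pentose phosphate pathway were described in the whole blood of pigs kept in thermoneutral (TN) or heat stress (HS) conditions. The list held 42 gene symbols, and members were found by the gene name that the array files gave to a probe. A probe of that name was on the array for 35 of the 42 genes, and all 35 had at least 1 probe in the table of log2 values. The array carried 124 such probes among 60305, and 111 of them were among the 39072 probes of the table. No probe carried the names PFKL, PFKP, PFKFB2, PGAM1, BPGM or PKLR, and pyruvate kinase M was listed under its older name PKM2. The phosphofructokinase step was therefore read from PFKM alone, and the phosphoglycerate mutase step was not measured by any member.

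Messenger RNA was measured in 35 castrated male growing pigs, with 1 array for each pig. The breeds were Creole (CR, a local Caribbean breed), Large White (LW, a commercial breed) and their F1 cross, with 5 CR pigs in TN and 6 pigs in each of the other 5 groups. TN pigs were kept at 24 °C. The sample labels gave 30 °C for HS and the protocol text 32 °C for 5 d, so the groups were named HS and TN. Blood of the TN pigs was taken at slaughter ahead of the warm period and that of the HS pigs over its last days. By the paper, not every HS pig had the full 5 d. The paper also reported that HS pigs ate less in the heat than before it. Climate, feed intake, age and day of slaughter cannot be told apart. Pen, day of slaughter, sire and dam had no labels, and the p-values measure the spread between pigs taken as independent. On each array, 55.2% to 68.0% of all probes were well above background, with the lowest shares in F1 TN pigs (55.2% to 63.9%). All values were log2 intensities after quantile normalization by the authors, and a difference of 1 is a 2-fold change in intensity.

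Glycolysis splits glucose into pyruvate in a chain of cytosolic reactions that yields ATP without oxygen. Pyruvate is then either reduced to lactate and exported, or taken into mitochondria and oxidised by the pyruvate dehydrogenase complex, which its kinases switch off. The pentose phosphate pathway branches off at glucose 6-phosphate and supplies NADPH and ribose. In blood, mature red cells have no mitochondria and live on glycolysis, and white cells raise their glycolysis when they are activated. Whole blood is a mixture of cells, so that fewer cells of a type and less RNA per cell cannot be told apart.

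Part of the genes along the glycolytic chain had more mRNA in HS than in TN pigs. Signal was lower at probes named for a lactate exporter (SLC16A3, 1 probe of 2), 1 subunit of pyruvate dehydrogenase (DLAT, 1 of 3) and 1 of its kinases (PDK4). For the SLC16A3 probe, the strand of the transcript it matches was not established. Each gene was represented by its brightest probe, the one with the highest mean over the 35 arrays. Of the 35 genes, 12 were higher in HS pigs (34.3%) at an adjusted p under 0.05 in limma with breed in the model, against a background of 22.8% of 8811 genes. Another 3 were lower (8.57%), against 16.8% of all genes. In either direction 15 of 35 were called (42.9%), near the 39.5% of all genes. Among the 111 member probes, 31 were higher (27.9%, background 20.1%) and 5 were lower (4.50%, background 14.7%). In either direction 32.4% of the member probes were called, against 34.8% of all probes. The median change was 0.16 for the 35 genes and 0.06 for all genes. Changes were small, with the largest rise in ENO1 (0.50 ± 0.08, SE) and the largest fall in DLAT (-0.83 ± 0.17). All 15 called genes had the same sign in the 3 breeds. They were chosen by their change over these same pigs, so this is no separate evidence. None of the 35 genes was called without the F1 pigs, and 2 were with the level of red cell markers in the model, as described further on.

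**Figure D1:**
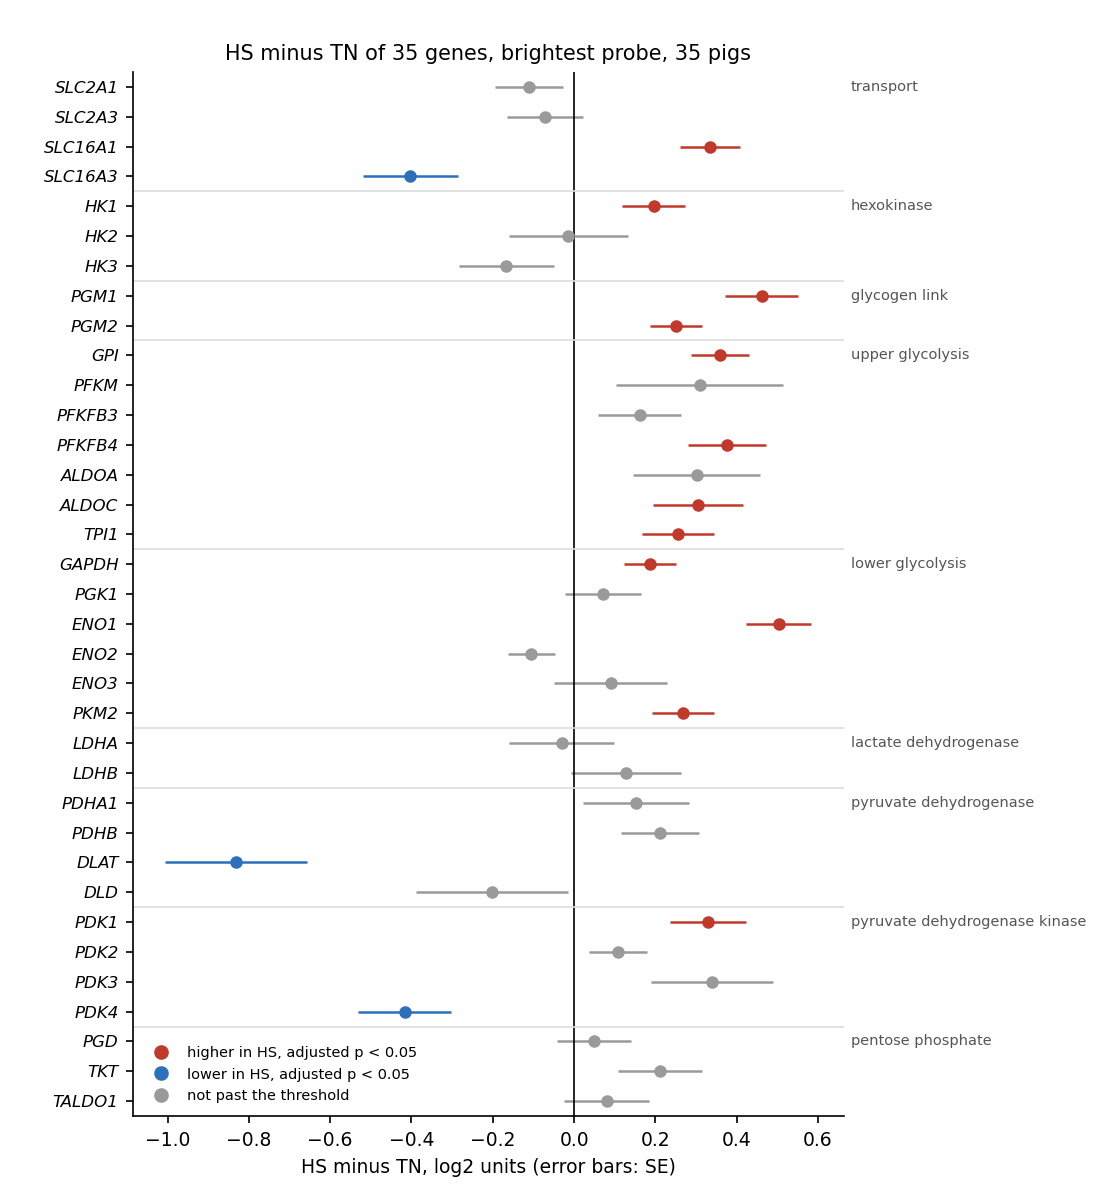
Change between HS and TN pigs of the 35 genes in log2 units, with breed in the model (points: estimate, bars: SE), ordered from transport down the pathway. Called genes in red (12) rose and those in blue (3) fell, from -0.83 for DLAT to 0.50 for ENO1.

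The first and last steps are transport. SLC2A1 and SLC2A3, the glucose carriers GLUT1 and GLUT3, did not pass the threshold (HS minus TN -0.11 ± 0.08 and -0.07 ± 0.09 log2 units). The brightest probes of the monocarboxylate carriers moved in opposite directions. SLC16A1 (MCT1, which moves lactate and pyruvate across the cell membrane) was higher in HS pigs. SLC16A3 (MCT4, a lactate exporter of strongly glycolytic cells) was lower at a probe whose strand was not established. For SLC16A1, the log2 values of the CR TN pigs were 5.82, 5.82, 6.11, 6.11 and 6.23, and those of the CR HS pigs ran from 5.93 to 6.67 (median 6.26). They spanned 5.64 to 6.39 (median 6.0) in F1 TN pigs and 6.23 to 6.84 (median 6.34) in F1 HS pigs. In LW pigs the range was 5.79 to 6.15 (median 5.99) in TN and 6.16 to 6.41 (median 6.34) in HS. The groups did not overlap in LW pigs, by a narrow margin (TN up to 6.15, HS from 6.16), and overlapped in CR and F1 pigs. Of the 18 HS pigs, 16 lay above the TN mean of their breed. The share of all genes without overlap was not counted, here or for the genes below. The change was 0.33 ± 0.07 (adjusted p = 0.00187, limma). Of its 6 probes, 4 were called higher and none lower, with changes from -0.02 to 0.33.

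SLC16A3 was carried by 1 of its 2 probes. At this probe, the CR TN pigs had log2 values of 6.93, 6.97, 7.04, 7.21 and 7.82, against 6.47 to 7.46 (median 6.77) in CR HS pigs. F1 TN pigs had 7.07 to 7.85 (median 7.66) and F1 HS pigs 6.29 to 6.98 (median 6.84). LW pigs had 6.67 to 7.36 (median 7.25) in TN and 6.87 to 7.54 (median 7.10) in HS. The climates did not overlap in F1 pigs, with every HS pig below every TN pig, and they overlapped in CR and LW pigs. The change was -0.40 ± 0.12 (adjusted p = 0.00908, limma), and 15 of 18 HS pigs lay below the TN mean of their breed. The second probe, A_72_P776522, was well above background on 13 of 35 arrays and gave 0.01 ± 0.08. The 2 probes are shown because the gene's direction rests on which of them is read. The sequence of the first is printed as the files give it and as its reverse complement, since the strand of the transcript it matches was not established here. All 3 reading frames of the reverse complement are free of stop codons, against 2 as printed. Whether this probe reads SLC16A3 mRNA was therefore not established either. For the second probe the first 30 bases are given.
O12742: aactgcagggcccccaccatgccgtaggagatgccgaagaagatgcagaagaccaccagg
O12742, reverse complement: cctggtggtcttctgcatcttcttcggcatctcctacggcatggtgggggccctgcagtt
A_72_P776522: tttttaaaaataactaggctgtttgttgag

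Hexokinases trap glucose in the cell as glucose 6-phosphate. HK1, the form of red cells and most tissues, was higher in HS pigs (0.20 ± 0.08, adjusted p = 0.0474, limma), just inside the threshold, and leaving out 1 pig at a time ended the call in 23 of 35 cases. Its mean log2 value in F1 pigs was 11.94 ± 0.31 in TN and 12.34 ± 0.28 in HS (SD, n = 6 each), and the changes were 0.03 in CR, 0.40 in F1 and 0.15 in LW pigs. Its 3 probes gave 0.20 ± 0.08, 0.17 ± 0.08 and 0.18 ± 0.08, and only the brightest was called. These probes are overlapping copies of 1 stretch of the transcript. A pair of them differ by the single base C25T, counted from the 5′ end of the probe, and are shown with that base in capitals within 30 bases of the probe. The nearly equal changes are therefore 1 measurement made 3 times.
A_72_P352783: atcgcttttgtgagCcatgtcgtatgacct
A_72_P541893: atcgcttttgtgagTcatgtcgtatgacct
HK3, the white cell form, had a change of -0.17 ± 0.12, and HK2, which was near background on some arrays, of -0.01 ± 0.15. Neither passed the threshold. The log2 difference of HK3 minus HK1 within a pig changed by -0.55 from TN to HS in F1 pigs (exact permutation test, two-sided, p = 0.00649, adjusted p = 0.0536), which did not pass after adjustment over 33 tests of isozymes.

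Phosphoglucomutases connect glucose 6-phosphate with glycogen. For PGM1, the log2 values of CR TN pigs were 7.16, 7.37, 7.41, 7.43 and 7.62, against 7.26 to 8.08 (median 7.90) in CR HS pigs. F1 pigs had 6.95 to 7.71 (median 7.28) in TN and 7.65 to 8.17 (median 7.83) in HS. The corresponding values of LW pigs were 7.08 to 7.80 (median 7.43) and 7.44 to 8.11 (median 7.99). The climates overlapped in every breed, and 16 of 18 HS pigs lay above the TN mean of their breed. The change was 0.46 ± 0.09 (adjusted p = 0.00159, limma), of similar size in the 3 breeds (0.40 in CR, 0.58 in F1 and 0.40 in LW pigs). PGM2, which also acts on ribose phosphates, was higher by 0.25 ± 0.06 (adjusted p = 0.00461), again with close values in the breeds (0.19 in CR, 0.27 in F1 and 0.28 in LW pigs).

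The other 2 probes of PGM1 did not follow the climate but split the pigs. Both match 1 stretch of sequence, with 55 bases in common, and changed by -0.07 ± 0.38 and 0.02 ± 0.36. At the first of them, 28 pigs had log2 values of 5.75 to 6.77 and 7 pigs had 8.95 to 9.38. No pig lay in the gap of 2.18 log2 units between them. The same 7 pigs were high at the second probe. Among them were 2 TN pigs and 1 HS pig of the CR breed, 2 LW pigs of each climate, and none of the 12 F1 pigs. No other of the 111 member probes had a gap over 1 log2 unit with 3 or more pigs on each side. The first 30 bases of the brightest probe and of the first splitting probe are shown because these probes, which share no run of 20 bases, gave such different patterns under 1 gene name.
A_72_P108441: atttcttcaccaggtacgattacgaagagg
O5322: tttgcgacgtaatcccattcacacaaagat

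In upper glycolysis, which turns glucose 6-phosphate into triose phosphates, 4 of 7 genes were higher in HS pigs and none was lower, against 22.8% and 16.8% of all genes. GPI, the isomerase that makes fructose 6-phosphate, was measured at high intensity. In CR TN pigs its log2 values were 12.22, 12.27, 12.50, 12.53 and 12.72, and in CR HS pigs they ran from 12.61 to 13.07 (median 12.80). F1 TN pigs had 11.98 to 12.45 (median 12.26) and F1 HS pigs 12.66 to 12.96 (median 12.83). LW pigs had 12.17 to 12.65 (median 12.49) in TN and 12.34 to 12.88 (median 12.51) in HS. F1 pigs did not overlap between climates, and 17 of 18 HS pigs were above the TN mean of their breed. The change was 0.36 ± 0.07 (adjusted p = 0.00159, limma). A further 2 of its 4 probes were called higher (0.22 ± 0.07 and 0.39 ± 0.08), and the last had a change of -0.01 ± 0.09.

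The phosphofructokinase step, which commits sugar to glycolysis, showed a called change in its regulator only. PFKM itself varied widely between pigs (0.31 ± 0.20, adjusted p = 0.237). PFKFB3 and PFKFB4 make and degrade fructose 2,6-bisphosphate, the activator of phosphofructokinase. PFKFB4 had log2 values of 6.49, 6.89, 6.91, 6.93 and 7.06 in CR TN pigs and of 7.01 to 7.34 (median 7.17) in CR HS pigs. Its values were 6.20 to 7.33 (median 6.65) in F1 TN pigs and 7.05 to 7.69 (median 7.15) in F1 HS pigs. In LW pigs they were 6.64 to 7.39 (median 6.83) in TN and 6.68 to 7.55 (median 7.26) in HS. The climates overlapped in each breed, with 16 of 18 HS pigs above the TN mean of their breed. The change was 0.38 ± 0.10 (adjusted p = 0.00435, limma). PFKFB3 did not pass over all pigs (0.16 ± 0.10, adjusted p = 0.213), with values of 0.26 in CR, 0.41 in F1 and -0.17 in LW pigs.

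Aldolases cut fructose 1,6-bisphosphate. ALDOC was higher by 0.30 ± 0.11 (adjusted p = 0.0323, limma), with means of 10.47 ± 0.32 in F1 TN pigs and 11.04 ± 0.30 in F1 HS pigs (SD, n = 6 each). ALDOA, the common form, had nearly the same change with a larger error (0.30 ± 0.16, adjusted p = 0.127). The ALDOC call was lost without F1 HS replicate 3, LW HS replicate 3, CR HS replicate 3, F1 TN replicate 4 or F1 HS replicate 5 (0.26 to 0.35 over all pigs left out in turn). The difference of ALDOC minus ALDOA within a pig did not pass in any breed. TPI1, triosephosphate isomerase, was called higher by all 6 of its probes, with changes from 0.26 to 0.50. Its brightest probe, described in the files as matching a TPI1 pseudogene as well, had the smallest of them (0.26 ± 0.09, adjusted p = 0.0254, limma). At that probe CR TN pigs had log2 values of 10.13, 10.51, 10.60, 10.95 and 11.01 and CR HS pigs 10.32 to 11.23 (median 10.89). F1 pigs had 10.54 to 11.19 (median 10.91) in TN and 10.88 to 11.72 (median 11.20) in HS. LW pigs had 10.59 to 11.16 (median 10.89) in TN and 10.89 to 11.33 (median 11.21) in HS. The climates overlapped in each breed, and 14 of 18 HS pigs lay above the TN mean of their breed. A pair of TPI1 probes have the same 60 bases at different spots of the array, of which the first 30 are shown, and they gave 0.35 ± 0.08 and 0.36 ± 0.09.
A_72_P532638 and A_72_P073361: gcttccctcaagcctgaatttgtggacatc

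In lower glycolysis, which harvests ATP, 3 of 6 genes were higher in HS pigs and none was lower, against 22.8% and 16.8% of all genes. GAPDH, which oxidises glyceraldehyde 3-phosphate and is often taken as a reference gene, was higher by 0.19 ± 0.06 (adjusted p = 0.0233, limma), from 17.03 ± 0.16 in F1 TN pigs to 17.31 ± 0.23 in F1 HS pigs (SD, n = 6 each). With arrays scaled to their 75th percentile in place of quantile normalization its change was 0.05 (adjusted p = 0.689). Its second probe gave 0.10 ± 0.05. ENO1, the enolase of most cells, had the smallest p of the list. Its log2 values were 12.20, 12.49, 12.51, 12.55 and 12.59 in CR TN pigs and 12.63 to 13.26 (median 13.03) in CR HS pigs. They were 11.97 to 13.08 (median 12.34) in F1 TN pigs and 12.87 to 13.21 (median 13.13) in F1 HS pigs. In LW pigs they were 12.54 to 12.83 (median 12.74) in TN and 12.66 to 13.22 (median 13.09) in HS. The climates did not overlap in CR pigs, and 17 of 18 HS pigs exceeded the TN mean of their breed. The change was 0.50 ± 0.08 (adjusted p = 0.00159, limma), with 0.55 in CR, 0.65 in F1 and 0.31 in LW pigs. It rests on a single probe, whose first 30 bases are given.
O15015: agatcaagactgtcgcaccttgccgatccg

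The other enolases were not called by their brightest probes. ENO2, the neuronal form, was well above background on 15 of 35 arrays and had a change of -0.11 ± 0.06. ENO3, the muscle form, had 0.09 ± 0.14, and 1 of its 4 probes was called higher. The log2 difference of ENO2 minus ENO1 within a pig changed by -0.75 from TN to HS in CR pigs (exact permutation test, two-sided, adjusted p = 0.0476). It changed by -0.74 in F1 pigs (exact permutation, adjusted p = 0.0571) and by -0.34 in LW pigs (exact permutation, adjusted p = 0.207).

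PKM2, pyruvate kinase of white cells and most tissues, was higher at all 5 of its probes (0.27 to 0.47). At the brightest, CR TN pigs had log2 values of 10.54, 10.63, 10.67, 10.69 and 10.74 and CR HS pigs 10.72 to 11.07 (median 10.94). F1 pigs had 10.16 to 10.85 (median 10.51) in TN and 10.73 to 11.07 (median 10.90) in HS. In LW pigs the values were 9.95 to 10.84 (median 10.69) in TN and 10.25 to 10.94 (median 10.78) in HS. The climates overlapped in each breed, in CR pigs by a narrow margin, and 17 of 18 HS pigs lay above the TN mean of their breed. The change was 0.27 ± 0.08 (adjusted p = 0.00801, limma).

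PGK1, which makes the first ATP of the chain, was called between breeds and, by its brightest probe, not between climates. Its brightest probe changed by 0.07 ± 0.09 between HS and TN (adjusted p = 0.566, limma), while 2 of its 7 probes were called higher and all 7 had a positive change (0.04 to 0.36). CR TN pigs had log2 values of 12.22, 12.35, 12.55, 12.63 and 13.23 at the brightest probe, and CR HS pigs 12.43 to 13.11 (median 12.68). LW pigs had 11.75 to 12.66 (median 12.34) in TN and 11.97 to 12.31 (median 12.12) in HS. F1 pigs had 11.91 to 12.59 (median 12.21) in TN and 12.26 to 12.87 (median 12.41) in HS. In HS pigs the lowest CR value was above the highest LW value, and in TN the breeds overlapped. CR minus LW was 0.44 ± 0.11 (adjusted p = 0.0493, limma with climate in the model), and the 7 probes gave 0.37 to 0.44, of which only the brightest was called. Leaving out 1 pig at a time ended this call in 24 of 35 cases.

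Pyruvate leaves glycolysis at a branch. Lactate dehydrogenase, which turns it into lactate, showed no called change: LDHA had -0.03 ± 0.13 and LDHB 0.13 ± 0.14. None of the 3 LDHA probes and none of the 13 LDHB probes passed the threshold. All 13 LDHB probes had a small positive change (0.09 to 0.25), but several share their bases, and 3 have the same 60 bases, so that they are not separate evidence. These 3 gave 0.13, 0.09 and 0.10, which shows how far spots of 1 sequence differ. The log2 difference of LDHA minus LDHB within a pig changed by -0.59 in LW pigs (exact permutation test, two-sided, p = 0.0195, adjusted p = 0.102), and its changes in CR and F1 pigs were 0.15 and -0.01.

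Pyruvate dehydrogenase turns pyruvate into acetyl-CoA in mitochondria, with the subunits E1 (PDHA1, PDHB), E2 (DLAT) and E3 (DLD). DLAT had the largest fall of the list. Its CR TN pigs had log2 values of 8.53, 8.99, 9.11, 9.41 and 9.75, and CR HS pigs 7.64 to 9.19 (median 8.57). In F1 pigs the values were 9.50 to 10.06 (median 9.81) in TN and 7.47 to 8.85 (median 8.44) in HS. LW pigs had 8.54 to 9.64 (median 9.11) in TN and 8.74 to 9.12 (median 8.79) in HS. The F1 climates did not overlap, with every HS pig below every TN pig, and 17 of 18 HS pigs lay below the TN mean of their breed. The change was -0.83 ± 0.17 (adjusted p = 0.00161, limma), with -0.65 in CR, -1.55 in F1 and -0.28 in LW pigs. The other 2 probes named for DLAT were not called (0.12 ± 0.11 and 0.06 ± 0.11), although both were well above background on all 35 arrays. The 3 probes are shown because they disagree, the first as its whole 60 bases and the others as their first 30.
A_72_P468917: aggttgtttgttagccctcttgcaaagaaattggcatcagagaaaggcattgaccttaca
A_72_P177491: cccaagaatttctagacactcccaggtcac
O14151: gttgagtctgtccagataagttatttgtga

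The other subunits did not pass by their brightest probes (PDHA1 0.15 ± 0.13, PDHB 0.21 ± 0.10, DLD -0.20 ± 0.19). Of the 5 PDHA1 probes, 2 were called higher (0.27 ± 0.10 and 0.26 ± 0.09). Of the 9 DLD probes, 1 was called lower, its dimmest (-0.33 ± 0.07, adjusted p = 0.00178, limma), while the others had changes from -0.20 to 0.15. This DLD probe is printed as in the files and as its reverse complement. The latter begins with a start codon, in capitals, and has no stop codon in that frame. The strand of the transcript was not established here either, nor whether this probe reads DLD mRNA.
O10194: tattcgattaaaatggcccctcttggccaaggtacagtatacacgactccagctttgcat
O10194, reverse complement: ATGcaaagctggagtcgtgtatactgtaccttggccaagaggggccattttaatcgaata

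The kinases that switch pyruvate dehydrogenase off moved in opposite directions. PDK1 was higher in HS pigs, and PDK4, which is known to follow fasting and fat use, was lower. For PDK1, CR TN pigs had log2 values of 8.30, 8.77, 8.99, 9.09 and 9.24, and CR HS pigs 8.61 to 9.72 (median 9.13). F1 TN pigs had 8.32 to 8.90 (median 8.52) and F1 HS pigs 8.93 to 9.43 (median 9.22). LW pigs had 8.66 to 9.15 (median 8.99) in TN and 8.92 to 9.31 (median 9.05) in HS. F1 pigs did not overlap, and the change over all pigs was 0.33 ± 0.09 (adjusted p = 0.00833, limma), with 14 of 18 HS pigs above the TN mean of their breed. Its other 2 probes had smaller changes that did not pass (0.16 ± 0.10 and 0.04 ± 0.12).

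PDK4 was dim. Its CR TN pigs had log2 values of 5.81, 5.99, 6.02, 6.68 and 6.71, and CR HS pigs 5.53 to 6.82 (median 5.62). F1 pigs had 6.27 to 6.66 (median 6.44) in TN and 5.42 to 6.24 (median 5.72) in HS. LW pigs had 5.81 to 6.45 (median 6.24) in TN and 5.67 to 6.40 (median 6.0) in HS. In F1 pigs all HS values lay below all TN values, and 16 of 18 HS pigs lay below the TN mean of their breed. The change was -0.42 ± 0.11 (adjusted p = 0.00623, limma). Of 11 PDK4 probes on the array, 3 were in the table, and 2 of these were called lower. They have the same 60 bases, of which the first 30 are shown, and gave -0.42 ± 0.11 and -0.29 ± 0.10.
A_72_P576424 and O11548: ctagtggatggaaactgactgttcaggccc
PDK2 was near background (0.11 ± 0.07), and PDK3 did not pass (0.34 ± 0.15, adjusted p = 0.0744).

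Within a pig, the log2 difference of PDK4 minus PDK1 changed by -1.29 from TN to HS in F1 pigs (exact permutation test, two-sided, p = 0.00216, the smallest that 6 against 6 pigs allow, adjusted p = 0.0357). It changed by -0.63 in CR pigs and by -0.31 in LW pigs, which did not pass. The difference of SLC16A3 minus SLC16A1 likewise changed by -1.28 in F1 pigs (exact permutation test, two-sided, adjusted p = 0.0357). It changed by -0.56 in CR pigs and by -0.36 in LW pigs. This pair rests on the SLC16A3 probe whose strand was not established. With ENO2 minus ENO1 in CR pigs, these were the 3 of 33 tests, over 11 pairs of isozymes and 3 breeds, that passed. Since each pair holds a gene already called in HS minus TN, they restate those changes within a pig and are no separate evidence. Leaving out 1 pig moved the count between 2 and 6, with 6 without LW HS replicate 1 or without LW TN replicate 6. Whether the breeds differed in these isozyme differences was not tested.

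**Figure D2:**
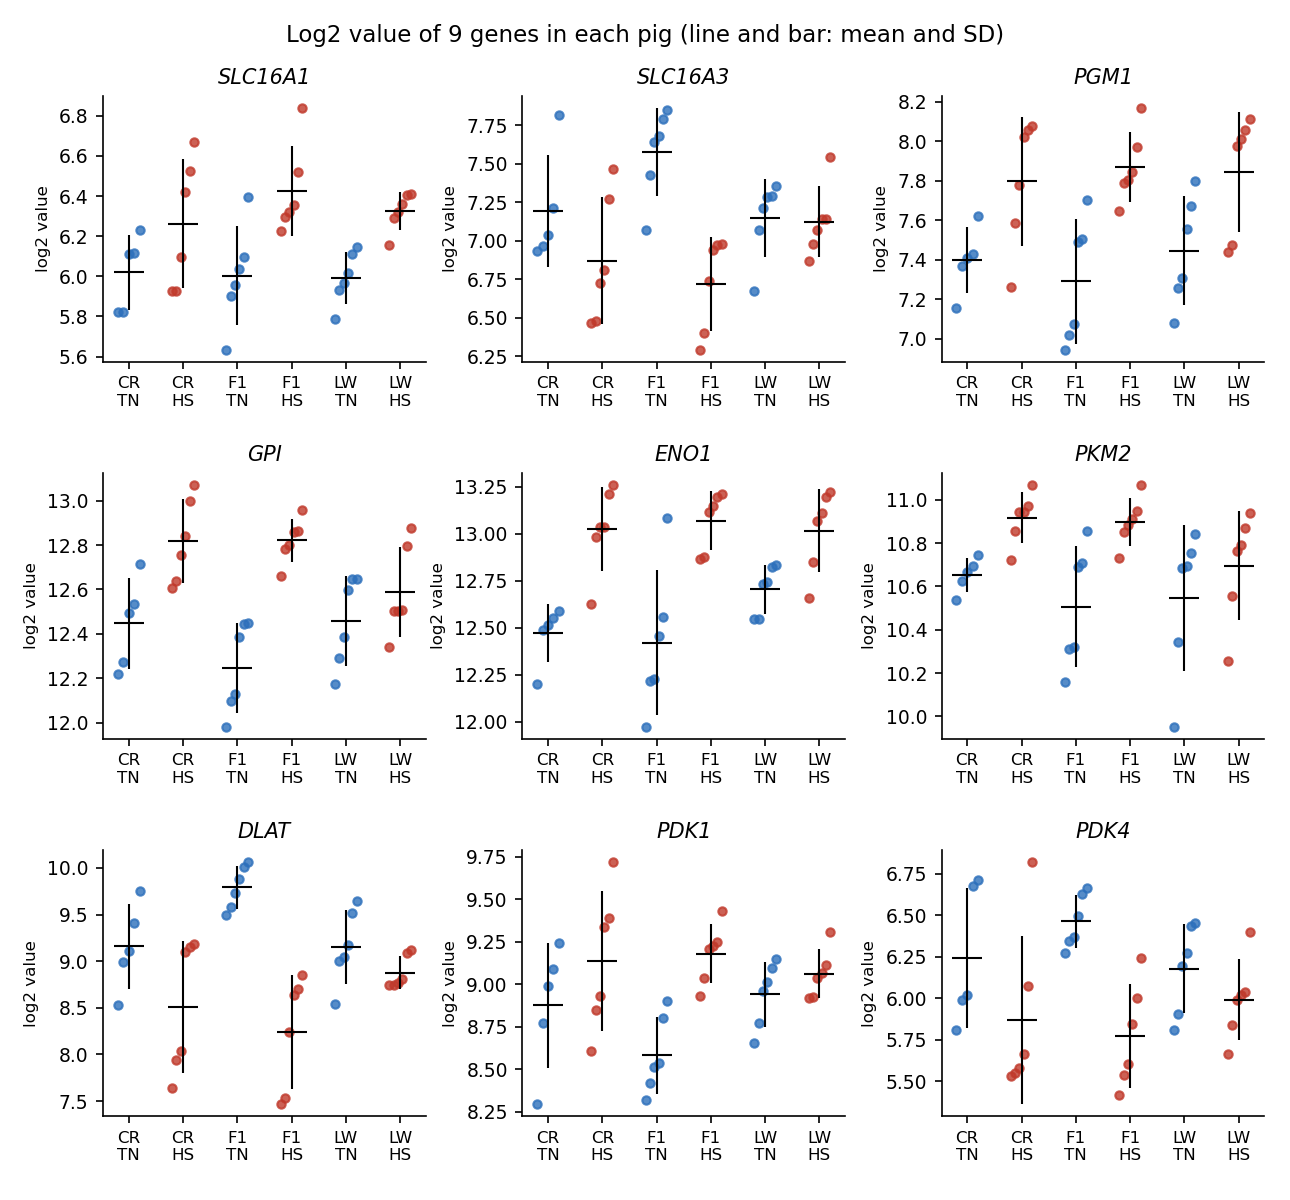
Log2 value of 9 genes (brightest probe) in each of the 35 pigs by breed and climate (blue: TN, red: HS; line and bar: mean and SD). In F1 pigs the climates did not overlap for SLC16A3, GPI, DLAT, PDK1 and PDK4, in CR pigs for ENO1, and in LW pigs, narrowly, for SLC16A1. The share of all genes without overlap was not counted, and 43.5% of 8811 genes were called within F1 pigs.

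The pentose phosphate genes did not pass the threshold. PGD, which yields NADPH in the oxidative branch, had a change of 0.05 ± 0.09, and TALDO1, a transaldolase of the branch that returns sugars to glycolysis, 0.08 ± 0.10. TKT, the transketolase of that branch, had 0.21 ± 0.10 (unadjusted p = 0.0477, adjusted p = 0.105, limma). All 8 probes of these 3 genes had small positive changes, and none was called.

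Of 48 other genes of the same pathways, 28 were in the table, and 8 of these (28.6%, background 22.8%) were higher in HS pigs and none lower, with a median change of 0.10. They included BSG, the chaperone that brings the monocarboxylate carriers to the membrane (0.28 ± 0.06), and PC, pyruvate carboxylase (0.26 ± 0.09). FBP1, fructose bisphosphatase of gluconeogenesis (0.56 ± 0.15), PYGL, which breaks down glycogen (0.32 ± 0.11), and RPIA of the pentose phosphate pathway (0.40 ± 0.10) were also called. SLC2A6 (0.45 ± 0.12) and PRPS1 (0.18 ± 0.06) were called as well.

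**Figure D3:**
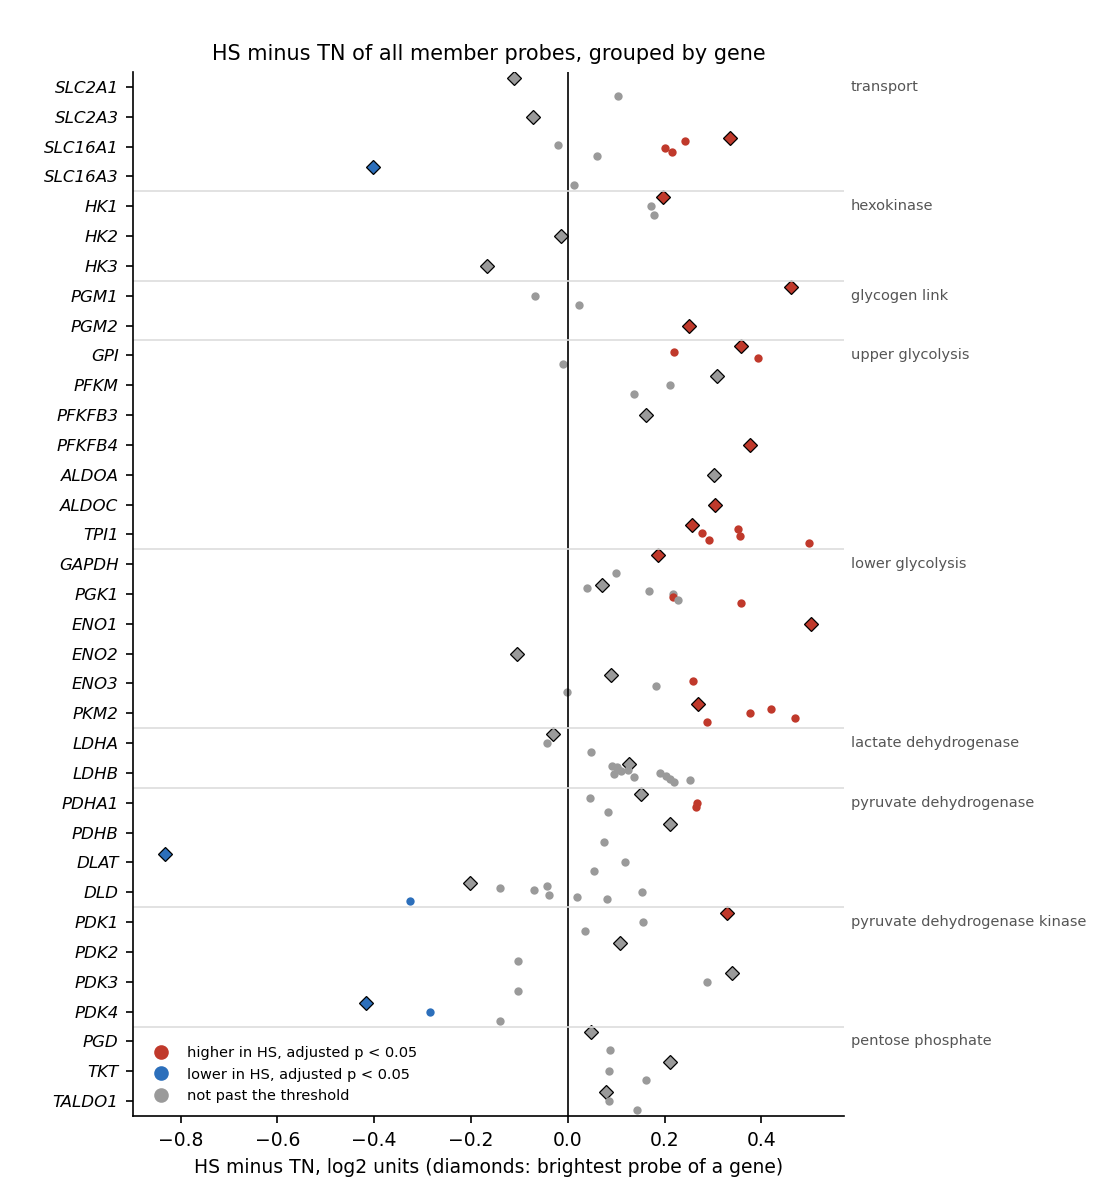
Change between HS and TN pigs of each of the 111 member probes in log2 units (diamonds: the brightest probe of a gene, circles: the others). No gene had called probes in both directions, and the 6 TPI1 and 5 PKM2 probes were all called higher, while DLAT and SLC16A3 were each called lower by a single probe.

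Probes of 1 gene disagreed in several cases. Of the 35 genes, 25 had more than 1 probe in the table, and 10 had a single one. Only TPI1 and PKM2 had every probe called among genes with several probes. At least 1 probe was called higher in 15 genes and lower in 4, and no gene had calls in both directions. Apart from the 12 genes called by their brightest probe, PGK1, ENO3 and PDHA1 had at least 1 dimmer probe called higher. DLD had 1 called lower, for which it was not established that it reads DLD mRNA. With the values of a gene's probes averaged in place of the brightest one, SLC16A3, HK1, PGM1 and PDK1 lost their call and PDHA1 gained one.

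The question of whether breeds respond alike was addressed within each breed. In F1 pigs 12 of the 35 genes were higher in HS (34.3%, background 23.0%) and 3 were lower (8.57%, background 20.4%). In either direction the share was 42.9%, against 43.5% of all genes. The 12 higher genes included PFKFB3 (0.41 ± 0.16) and PDHB (0.48 ± 0.15), which were not called over all pigs, and lacked PGM2 and TPI1, which were. TPI1 was missed by its brightest probe only, and its other 5 probes were called higher in F1 pigs. Without F1 TN replicate 4 the count of genes higher in F1 pigs was 7. Arrays of F1 TN pigs had the lowest median intensity before normalization, with a 75th percentile of 112 to 186 (median 152). Those of F1 HS pigs had 172 to 266 (median 250), and medians of the other groups were 199 to 236. Whether this difference had a part in the F1 changes was not tested. In CR pigs no member and no other gene was called (0.0%), and 5 members had an unadjusted p under 0.05 (14.3%, background 10%). In LW pigs none was called either (0.0%), with 4 members at an unadjusted p under 0.05 (11.4%, background 9.26%).

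The difference between breeds was then tested itself. The interaction of breed and climate called no member and no other gene (0.0%, limma), and 4 members had an unadjusted p under 0.05 (11.4%, background 17.3%). The smallest p-values were for F1 against LW pigs. For DLAT the HS effect of F1 minus that of LW was -1.28 ± 0.37 (unadjusted p = 0.00141, adjusted p = 0.122), for SLC16A3 -0.83 ± 0.25 (adjusted p = 0.122) and for GPI 0.44 ± 0.16 (adjusted p = 0.128). With array weights, in contrast, the HS effect of F1 minus that of LW was called for DLAT (-1.30 ± 0.33) and SLC16A3 (-0.77 ± 0.21), both at an adjusted p of 0.0364 (limma), which is 2 of 35 members (5.71%) against 3902 of 39072 probes (9.99%). The joint interaction test called no probe with array weights either. Whether F1 and LW pigs differed in these genes therefore depends on the weighting of the arrays.

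**Figure D4:**
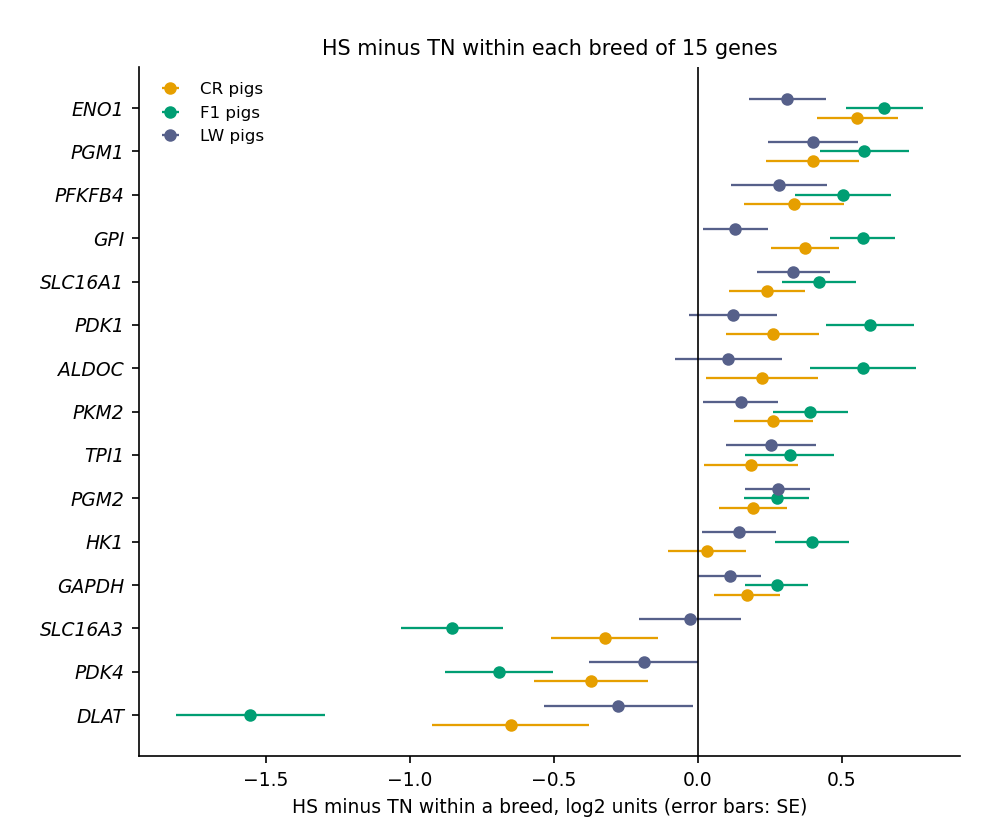
Change between HS and TN pigs within CR, F1 and LW pigs of the 15 called genes, in log2 units (bars: SE). All 15 genes had the same sign in the 3 breeds, whose pigs also served to choose these genes. F1 pigs had the largest change of each gene except PGM2, and the interaction of breed and climate called none of them.

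Without the 12 F1 pigs, none of the 35 genes was called in HS minus TN, nor any other probe. All 15 called genes kept their sign, with ENO1 at 0.43 (adjusted p = 0.162, limma), PGM1 at 0.40 and DLAT at -0.45, and 9 members had an unadjusted p under 0.05 (25.7%, against 17.5% of all probes). This fit held 23 pigs in place of 35, and left out the F1 TN arrays with their lower intensity. These 23 pigs also served to choose the 15 genes, so the kept signs are no separate evidence. Slides 1 to 4 each held all 6 groups. Within these slides the change of ENO1 was 0.43 to 0.62, that of GPI 0.26 to 0.58 and that of DLAT -1.08 to -0.33. Of the 15 called genes, 14 had the same sign on all 4 slides, whose pigs also served to choose these genes. ALDOC turned to -0.22 on slide 1, with 0.54, 0.43 and 0.39 on the others, and PDK4 was near 0 on slide 1 (-0.03). With slide as a block, 12 genes were higher and 3 lower, in either direction 42.9% of members against 36.9% of all probes.

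Between breeds, PGK1 was the only member called. It was 1 of 35 genes higher in CR than in LW pigs (2.86%, background 0.67%), and none was lower (background 0.431%). Within CR minus LW, the next smallest p was that of TPI1, with -0.29 ± 0.11 (adjusted p = 0.268, limma). The CR minus LW values of TALDO1 (0.33 ± 0.13) and PGD (0.28 ± 0.11) did not pass (adjusted p = 0.307 and 0.326). F1 minus CR called no member (background 0.102%), with 3 at an unadjusted p under 0.05 (8.57%, background 4.73%). PDHA1 had the smallest p there (-0.54 ± 0.16, adjusted p = 0.284, limma). F1 minus LW called none (background 0.0113%), again with 3 at an unadjusted p under 0.05 (8.57%, background 4.44%). ENO3 had the smallest p in F1 minus LW (0.58 ± 0.17, adjusted p = 0.415, limma).

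Markers of immature red cells moved with climate in the same pigs. Of 20 erythroid markers, 15 were in the table, and 6 were lower in HS pigs (among them ALAD, ALAS2, EPB42, GATA1 and UROD) and 1 was higher (SLC4A1, 0.27 ± 0.10), against 16.8% of all genes lower and 22.8% higher, with a median change of -0.67. ALAS2, the first enzyme of haem synthesis in red cells, had -0.74 ± 0.19. The mean log2 level of the 15 markers was 10.71 ± 0.60 in F1 TN and 9.75 ± 0.57 in F1 HS pigs (SD, n = 6 each). It was 10.29 ± 0.60 (n = 5) and 9.89 ± 0.58 (n = 6) in CR pigs, and 10.38 ± 0.28 and 10.20 ± 0.29 in LW pigs (n = 6 each). HBB, the globin that fills red cells, was bright on the arrays (mean log2 level 17.44) and had -0.13 ± 0.09, which did not pass.

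With the erythroid level as a covariate, 2 of the 35 genes were called, ENO1 (0.45, adjusted p = 0.039, limma) and TKT (0.42, adjusted p = 0.048), both higher in HS pigs. Over all 39072 probes, 36 were called in place of 13601. The estimate of DLAT went from -0.83 to -0.52, of PDK4 from -0.42 to -0.26, of SLC16A3 from -0.40 to -0.28 and of ALDOC from 0.30 to 0.11. Those of GPI (0.36 to 0.32), TPI1 (0.26 to 0.25) and PGM2 (0.25 to 0.27) moved little, but did not pass (adjusted p = 0.0566, 0.134 and 0.0595). The estimates of 14 of the 15 genes kept their sign without their call, and ENO1 kept both. The erythroid level itself differed between climates, so that the parts of the level and of climate cannot be told apart.

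**Figure D5:**
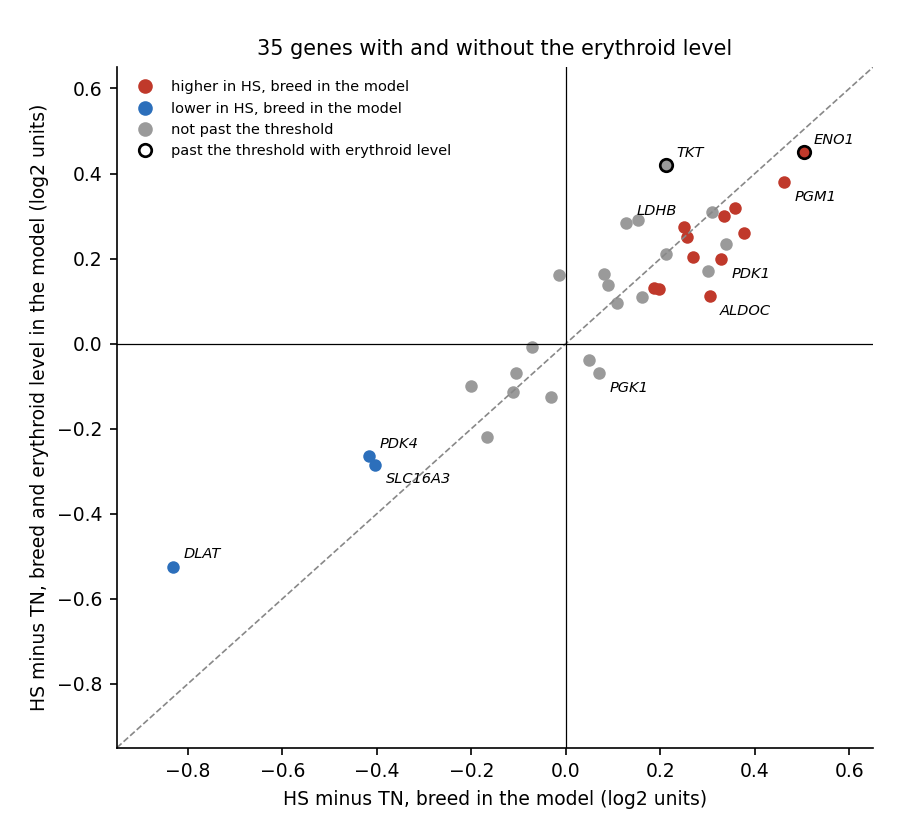
Change between HS and TN pigs of the 35 genes with breed in the model (x axis) and with breed and the erythroid level in the model (y axis), both in log2 units, with a dashed line of equal values. DLAT, PDK4 and SLC16A3 lie closer to 0 on the y axis, and the 2 ringed genes, ENO1 and TKT, were called with the erythroid level in the model.

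The other marker lists had median changes closer to 0. Of 12 T cell markers 4 were higher in HS pigs (33.3%), and of 6 B cell markers 3, against 22.8% of all genes, with median changes of 0.23 and 0.28. Of 6 monocyte markers 1 was higher (CSF1R), of 8 cytotoxic markers 1 was lower (KLRK1), and none of 11 neutrophil and 7 platelet markers was called. The neutrophil level varied widely within groups (for example 10.44 ± 0.95 in CR TN, SD, n = 5, and 10.21 ± 1.09 in CR HS pigs, SD, n = 6). With it as a covariate, 12 members were higher and 3 lower, as without it, but HK1 and ALDOC lost their call and PDHB and TKT gained one. In either direction this was 42.9% of members, against 30.6% of all probes. The part of shifts in T and B cells in the rise of the called glycolytic genes was not tested.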

How the data were processed

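Blood was collected at exsanguination into RNA-stabilising tubes, and Cy3-labelled cRNA was hybridised to 1-colour Agilent pig arrays (Agilent Feature Extraction 10.10.1.1 per the submitters' processing notes). The authors made the deposited table of log2 values from median spot intensities by quantile normalization and kept probes they took as expressed, by a rule not given in the sources used here. The deposited scanner files hold the intensities, background and detection of each spot, and gave the alternatives. The table was matched to them by recomputation (Pearson r = 0.99997 over probes and arrays).

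All tests across probes used limma 3.58.1 in R 4.3.3 (lmFit and eBayes, two-sided, Benjamini-Hochberg over 39072 probes, threshold 0.05), with breed and climate as additive terms, or with 6 group means for changes within a breed and the interaction. Pen, day, sire and dam, random effects in the study's model, had no labels and were left out. With them the paper reported far fewer differentially expressed probes in blood than the 13601 of 39072 called here. The p-values and background shares here are therefore not those of the study. Isozyme differences were tested by exact permutation in Python 3.11.15. The code was checked on simulated data. Values by group were given for up to 16 genes: those called in HS minus TN in order of p, then those called between breeds. Members, marker lists and tests were chosen with earlier results of these data known. Alternatives were other signals, scalings, filters, slide as a block, array weights, the mean of a gene's probes, marker levels as covariates, F1 pigs left out and each pig left out in turn. Gene names are those of the array files. Values of some single genes of the marker and pathway lists are not reported here.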

Additional observations from a re-analysis of the deposited data

Results flagged for a closer look

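In 4 of 96 sets of values (16 genes by 6 groups), 1 pig stood far from the rest of its group, and chance alone marks about 1 in 20 such sets. The log2 value of ENO1 in CR TN replicate 1 was 12.20, against 12.49 to 12.59 in the other CR TN pigs. The same pig had the highest ALDOC value of its group, 11.09 against 10.25 to 10.48. PFKFB4 was 7.69 in F1 HS replicate 4, against 7.05 to 7.28 in the other F1 HS pigs. It was 7.39 in LW TN replicate 6, against 6.64 to 6.91 in the other LW TN pigs.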

How the results depend on the processing

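Of the 15 genes called in HS minus TN, all 15 kept their sign under every alternative run, and the count stayed between 10 and 13 higher and between 2 and 4 lower except under 2 alternatives. Without F1 pigs, 0 genes were called higher and 0 lower. With the erythroid level as a covariate, 2 were higher and 0 lower. Within F1 pigs, 3 of 35 genes were then higher, against 576 of 39072 probes. With array weights, 3 of 35 genes were called higher within LW pigs, against 0 otherwise. Over all probes, 931 of 39072 were called higher within LW pigs with array weights. The array weights also called DLAT and SLC16A3 in the HS effect of F1 minus that of LW, which no other signal, scaling, filter, block or covariate did. The CR minus LW call of PGK1 was lost, leaving 0, with scanner median intensities, no filter, the filter on probes well above background, slide as a block, the mean of a gene's probes and without F1 pigs. Leaving out each pig in turn gave 7 to 13 genes higher in F1 pigs, 0 to 1 higher in CR than in LW pigs and 2 to 6 isozyme differences. HK1 lost its call in 23 of these 35 fits (0.15 to 0.22) and ALDOC in 5 (0.26 to 0.35). Among genes not called in HS minus TN, the sign turned for SLC2A3 (0.043) and PGK1 (-0.036) without F1 pigs, for HK2 (0.16), PGK1 (-0.069) and PGD (-0.040) with the erythroid level, for HK2 (0.083) with the neutrophil level and for LDHA (0.012) with 75th percentile scaling. Leaving out a pig gave -0.064 to 0.047 for HK2 and -0.081 to 0.013 for LDHA. The cause of these changes was not tested. No paired analysis was possible because the labels carry no replicate numbers that groups share. ENO2, PDK2 and HK2 were not well above background on every array, which limits what their values show.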
